A study of Mus musculus with 6 samples.

Results

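The 5 genes described here encode the peroxisome proliferator-activated receptors (PPARs) Ppara, Ppard and Pparg and the PGC-1 coactivators Ppargc1a and Ppargc1b. They were taken by name, and each gene was given the accessible intervals of a pooled ATAC-seq peak list that overlapped the stretch from 3 kb upstream of its start to its end. This gave 163 intervals of the 279569 in the list, and 5 of 21757 protein-coding genes. ATAC-seq cuts open chromatin in isolated nuclei with the Tn5 transposase, so an interval marks DNA that the enzyme could reach.

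Cortical kidney tissue was taken from 3 WT mice and 3 mice with a tubule-specific Acly knockout (Acly cKO), about 50000 nuclei went into each library, and all carried the treatment label Control. By the study's methods the knockout combined Acly fl/fl with Ksp-Cre, in which the Cdh16 promoter drives Cre across the tubule epithelium, from the proximal segment to the collecting duct. The methods name Cre-negative Acly fl/fl mice of the same litters as controls. They do not say by name that these WT libraries came from such mice. The methods give an age of some weeks for the mice of the disease models, and none for these kidneys by name. The authors deposited 1 peak list whose names mark it as a call on all libraries together, so no value below belongs to a genotype, none has a replicate error, and no test between WT and Acly cKO was made. The labels state a minimum depth of 35000000 reads per library, and the depth of each beyond that is unknown. Labels put WT libraries in batches 1 and 2 but Acly cKO in batches 4 and 5, so genotype and batch cannot be told apart in any case.

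PPARs are nuclear receptors that bind DNA as partners of a retinoid X receptor, at direct repeats of the half-site AGGTCA, and are activated by fatty acids and their derivatives. PPARalpha drives fatty acid oxidation in liver, heart and proximal tubule, PPARdelta is found in most tissues, and PPARgamma directs fat cell formation. The PGC-1 proteins do not bind DNA themselves but are recruited by PPARs, oestrogen-related receptors and other factors, and raise mitochondrial gene expression.

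The kidney label was checked against marker genes, by whether the promoter was accessible as defined below, which held for 75.8% of all protein-coding genes at a median fold enrichment of 19.4. All 8 proximal tubule markers had an accessible promoter, at 5.30 to 33.1, with Lrp2 (33.1), the megalin receptor, and Hnf4a (25.7), a tubule transcription factor, highest. Their median of 13.9 lay below that of all protein-coding genes and near the 13.5 of the 4 neuron markers. All 4 markers of the thick ascending limb and distal tubule, led by Umod (20.8), all 4 of podocytes, all 4 of endothelium, all 4 of stroma and all 4 of hepatocytes had one too. For the collecting duct, immune cells, adipocytes and neurons it was 3 of 4 each, close to the share over all genes, and 1 of 4 for skeletal muscle (Ckm, 1.96). A fold enrichment of at least 5 was reached by 14406 of 21757 protein-coding genes, and by all 8 proximal tubule markers. Of the thick ascending limb and distal tubule markers 3 of 4 reached it. Podocytes, stroma, hepatocytes, adipocytes and neurons had 2 of 4 each, endothelium, collecting duct and immune cells 1 of 4, and skeletal muscle 0. Single markers of other cells reached values like those of the tubule. The macrophage receptor Csf1r stood at 27.6, the neuronal genes Syn1 and Snap25 at 25.9 and 24.6, and the apolipoprotein gene Apoa1 at 21.5. These were the highest of their lists, and the median was 2.10 for the immune markers and 6.68 for the hepatocyte markers. Bulk nuclei mix these cell types, so strong opening in few cells and weak opening in many cannot be told apart.

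Short stretches of promoter intervals are printed as examples, with none for Ppargc1b. They were not cut alike, so they do not compare the promoters. That of Ppargc1a was centred on a motif, and that of Ppara ends before its highest summit. They are GRCm39 sequence, written 5′ to 3′ on the strand of the gene. Capitals mark GGGCGG, the box read by SP and KLF factors, at Ppara and Ppard, and TGACGTCA, the cAMP response element (CRE), at Ppargc1a, while the Pparg stretch, centred on its highest summit, holds neither.
Ppara promoter, chr15:85619566-85619625, plus strand: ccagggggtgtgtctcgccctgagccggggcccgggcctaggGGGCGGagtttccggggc
Ppard promoter, chr17:28451614-28451673, plus strand: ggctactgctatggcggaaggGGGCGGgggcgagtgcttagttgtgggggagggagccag
Pparg promoter, chr6:115337985-115338014, plus strand: gcggggcccgtcgcactcagagcggcagcc
Ppargc1a promoter, chr5:51711329-51711358, minus strand: ctgccttggagTGACGTCAggagtttgtgc

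All 5 genes had an accessible promoter, that is an interval within 1 kb of the start of the Ensembl canonical transcript. Across all protein-coding genes this held for 75.8%. Fold enrichment is the height of the signal at a summit over the caller's background, and an interval was given the value of its highest summit. All 5 promoters also exceeded a fold enrichment of 10, which 59.4% of protein-coding genes did. At Pparg this rests on a summit 1253 bp from the canonical start, and the highest summit within 1 kb of that start was 7.40. Each of the 1515 distinct fold enrichments in the list went with a single q value, and q never weakened as fold enrichment rose, so either measure gives the same order.

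Ppara had the highest of the 5 promoter values. The gene (ENSMUSG00000022383.15) lies on the plus strand at chr15:85618656-85687067. Its promoter interval, chr15:85615964-85621648, was 5685 bp wide, held 10 summits and reached 47.7 in fold enrichment, with a -log10 q of 932, 196 bp upstream of the start of the canonical transcript Ppara-202. It ranked 3937 among all intervals, and 80.4% of protein-coding genes had a lower promoter value.

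Ppard (ENSMUSG00000002250.18) lies on the plus strand at chr17:28451674-28520448. Its promoter interval, chr17:28450825-28452794, was compact, at 1970 bp with 4 summits. The highest, 20 bp upstream of the start, reached 37.6 with a -log10 q of 676, and 70.6% of protein-coding genes had a lower value.

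Pparg had the lowest promoter value of the 5. The gene (ENSMUSG00000000440.14) lies on the plus strand at chr6:115337675-115468268. Its promoter interval, chr6:115337754-115339438, reached 15.7 with a -log10 q of 195, and 46.4% of protein-coding genes had a lower value, against 68.9% to 80.4% for the other 4. The summit lay 1253 bp upstream of the start of the canonical transcript Pparg-204, beside an earlier cluster of starts. Within 1 kb of the canonical start itself the highest summit had a fold enrichment of 7.40. The start of the antisense lncRNA Gm67351 lies in the same interval, and since ATAC-seq does not read strand, opening at the 2 starts cannot be told apart.

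Ppargc1a (ENSMUSG00000029167.15) lies on the minus strand at chr5:51611592-51725068. Its promoter interval, chr5:51707318-51715858, was the widest of the 5 at 8541 bp and held 25 summits. The highest, 9 bp upstream of the start, reached 36.2 with a -log10 q of 643, and 68.9% of protein-coding genes had a lower value.

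Ppargc1b (ENSMUSG00000033871.16) lies on the minus strand at chr18:61431195-61533735. The highest of the 15 summits of its promoter interval, chr18:61529737-61535502, lay in intron 1, 1630 bp downstream of the start. It reached 38.8 with a -log10 q of 707, and 71.8% of protein-coding genes had a lower value. The summit 1 bp from the start had a fold enrichment of 21.3, and another 210 bp downstream 31.7. The interval also holds the microRNA gene Mir378a, at chr18:61530906-61530971 on the minus strand. Mir378a is a microRNA hosted by Ppargc1b that is known to restrain oxidative metabolism. The nearest summit upstream of it, by 120 bp, had a fold enrichment of 10.9, and the summit of 38.8 lay 1134 bp upstream of it. The lncRNA Gm58919 starts 26 bp from that summit, and the starts of the annotated genes Gm54396 and Gm58743 also lie in the interval.

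**Figure D1:**
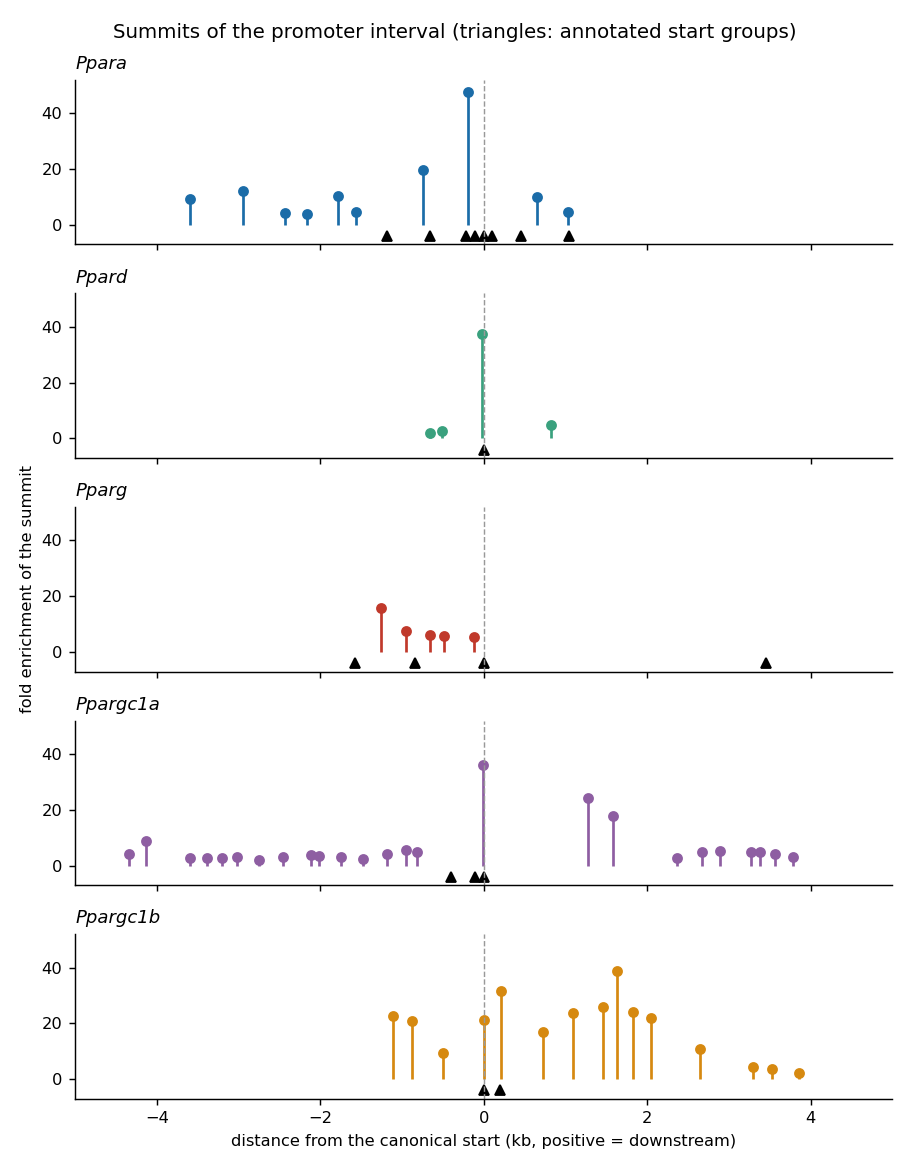
Fold enrichment of each summit in the promoter interval (y axis) against its distance in kb from the canonical start (x axis, 0 marked by a dashed line), with annotated start groups as triangles. Ppard and Ppargc1a have their highest summit within 20 bp of the start, Pparg has its highest 1253 bp upstream, and Ppargc1b has its highest 1630 bp downstream.

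The base composition of the promoters differed widely. In the 500 bp around the canonical start, the GC share was 76.8% at Ppara, 68.0% at Ppard, 67.8% at Ppargc1b, 59.6% at Pparg and 51.0% at Ppargc1a, beside a median of 57.2% over all protein-coding genes. Observed over expected CpG was 0.877 at Ppara from 63 CpG sites and 0.918 at Ppard from 50. It was 0.686 at Ppargc1b and 0.487 at Pparg, from 39 and 21 sites. Ppargc1a had 6 CpG sites and a ratio of 0.196, and 20.6% of protein-coding genes were lower still. Its promoter was thus poor in CpG, at a fold enrichment of 36.2 beside 37.6 at Ppard and 38.8 at Ppargc1b. The 38.8 at Ppargc1b belongs to a summit 1630 bp downstream, outside these 500 bp, within which its highest was 31.7.

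Exact or near matches to 8 motifs were searched on both strands in the 300 bases from 250 upstream of each canonical start to 50 downstream. GGGCGG occurred 5 times at Ppara, 3 times at Ppard, 2 times at Pparg and 1 time at Ppargc1b, and was not found at Ppargc1a. Of all protein-coding promoters, 42.5% held it. TGACGTCA, the element through which CREB acts, occurred only at Ppargc1a among the 5, starting 83 bp upstream of the start, as printed above, and 2.45% of all promoters held it. None of the 5 windows held the other 6 motifs. These were the ETS motif CCGGAAGT (4.35% of all promoters), the ERR motif TCAAGGTCA (0.473%), the HNF4 motif CAAAGTCCA (0.450%), the NRF1 motif GCGCATGCGC (1.16%), and, with up to 2 mismatches, the HNF1 motif GTTAATNATTAAC (1.26%) and the PPAR response element AGGTCANAGGTCA, called DR1 (3.46%). The ERR motif and DR1 share the letters AGGTCA. A match is a string of letters and not a binding site, and a window without one says nothing about the factor.

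The genes have several annotated starts, and the open ones were counted. GENCODE M39 lists 71 distinct starts for the 5 genes, which fall into 33 groups when starts within 100 bp are joined. Of these groups, 27 lay inside an interval, against 60.1% of the 72980 start groups of all protein-coding genes.

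At Ppara all 15 start groups lay inside an interval. Of them, 8 shared the promoter interval and the others sat in intron 2 of the canonical transcript, 11.2 kb to 41.7 kb downstream. The summit nearest to the internal start of Ppara-228 lay 3 bp away at a fold enrichment of 6.48, and that nearest to Ppara-226 and Ppara-229 lay 28 bp away at 8.71. The start of Ppara-230 had a summit of 19.4 at 14 bp. The starts of Ppara-232 and Ppara-233 lay 110 bp and 111 bp on either side of a summit of 29.5, the strongest interval of the gene outside its promoter.

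At Ppard, 3 of 4 start groups lay inside an interval. Those of Ppard-204 and Ppard-206, 39008 bp and 39419 bp downstream, shared an interval of 5.24. The start of Ppard-208, 60.5 kb downstream, lay 445 bp from the nearest interval.

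At Pparg, 3 of 8 start groups lay inside an interval, all of them in the promoter interval. The first group holds 17 starts, the most upstream 1578 bp before the canonical one, of which 14 lay inside. The remaining groups lay outside. They include the start of Pparg-201, 59.6 kb downstream and at the position of the promoter of the adipocyte form PPARgamma2, and its neighbours Pparg-240 to Pparg-242. The nearest interval to the Pparg-201 start, chr6:115397865-115398260, ended 623 bp before it and had a fold enrichment of 6.81. Of the 4 adipocyte markers, only Adipoq, a hormone gene of fat cells, had no promoter interval. Plin1, a lipid droplet gene, stood at 36.1, Cidec at 10.5 and Ucp1 at 2.62.

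At Ppargc1a all 4 start groups lay inside an interval. The upstream start of Ppargc1a-202 and Ppargc1a-204, 13.8 kb before the canonical one, lay in an interval of 5.43, and the other 3 groups lay in the promoter interval of 36.2. At Ppargc1b both groups lay in the promoter interval.

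**Figure D2:**
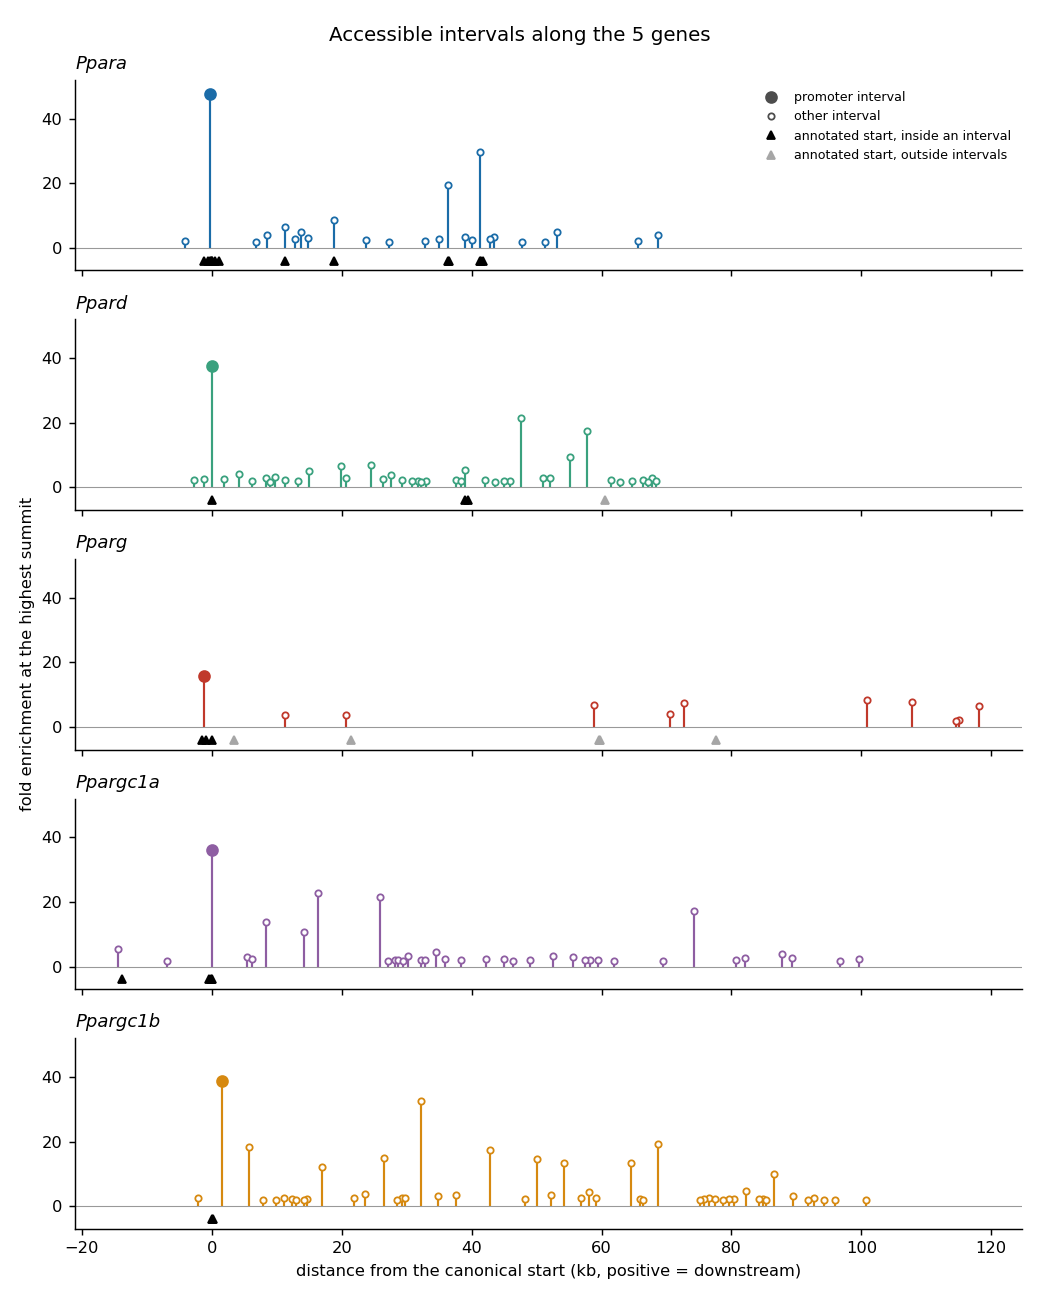
Fold enrichment at the highest summit of each of the 163 intervals (y axis) against its distance in kb from the canonical start (x axis), 1 panel per gene, with the promoter interval filled and annotated start groups as black (inside an interval) or grey (outside) triangles. The strong internal intervals of Ppara stand above annotated starts, those of Ppargc1b, up to 32.6, stand above none, and the grey triangles of Pparg near 60 kb have no interval over them.

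The 5 genes also differed in how much of the gene was open. Pparg had 11 intervals, Ppara 24, Ppargc1a 37, Ppard 41 and Ppargc1b 50. Per 10 kb of region this was 0.823 for Pparg, 3.18 for Ppargc1a, 3.36 for Ppara, 4.74 for Ppargc1b and 5.71 for Ppard. The intervals covered 5.42% of the Pparg region, 36.2% of Ppara, 40.9% of Ppargc1a, 49.6% of Ppard and 69.6% of Ppargc1b.

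To set these against gene length, each gene was placed among the protein-coding genes whose region was 0.5 to 2 times as long. The median of such genes was 11 intervals for Ppara and for Ppard, 14 for Ppargc1b, 15 for Ppargc1a and 17 for Pparg. Of the 4305 genes like Ppargc1b in length, 97.3% had a smaller share of the region covered. The figure was 90.9% for Ppard, 88.8% for Ppargc1a and 83.6% for Ppara. For Pparg it was 27.9%, so the gene lay below the median of 11.1% covered. Pparg was the longest of the 5 and had the fewest intervals, although at a fold enrichment of 5 or more it had 6 against 5 at Ppara, 7 at Ppard, 7 at Ppargc1a and 11 at Ppargc1b. At that limit the median of genes like Pparg in length was 4, and 63.8% of them had fewer than Pparg.

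**Figure D3:**
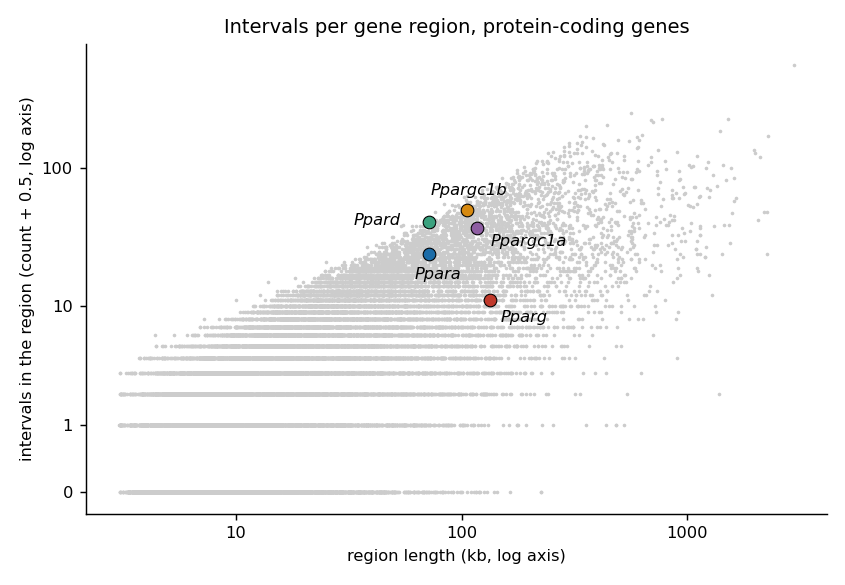
Number of intervals in the region (y axis, count + 0.5, log axis) against region length in kb (x axis, log axis) for 21757 protein-coding genes (grey), with the PPAR and PGC-1 genes in colour. Of the genes 0.5 to 2 times as long, 96.0% had fewer intervals than Ppard with 41, and 94.5% fewer than Ppargc1b with 50. Pparg with 11 lies inside the cloud.

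Most of the 163 intervals were weak. Their median fold enrichment was 2.49, beside 2.55 over all intervals, and their median width was 619 bp, beside 434 bp. A fold enrichment of at least 5 was reached by 36, and 24.5% of all intervals reached it. At least 10 was reached by 23, against 12.3% of all intervals. The low median held at Ppara (2.78), Ppargc1b (2.46), Ppard (2.42) and Ppargc1a (2.36). Pparg was unlike them, with a median of 6.48 and 6 of its 11 intervals at 5 or more, so its intervals were few but seldom among the weakest.

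**Figure D4:**
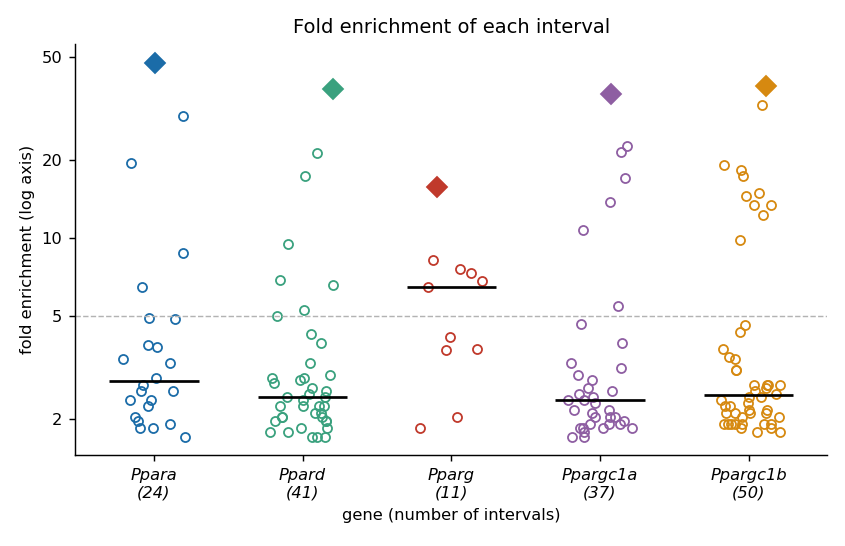
Fold enrichment of each interval (y axis, log axis) by gene (x axis), with the promoter interval as a diamond, the median of all intervals of the gene as a bar and a fold enrichment of 5 dashed. The promoter is the highest interval of each gene, and the median is 6.48 at Pparg and between 2.36 and 2.78 at the others.

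Outside the promoters, 31 intervals reached a fold enrichment of at least 5, and all but the exon 6 interval of Pparg and the upstream interval of Ppargc1a lay in introns of the canonical transcript. At Ppara the 3 strongest, all in intron 2, reached 29.5 at 41.3 kb downstream of the canonical start, 19.4 at 36.3 kb and 8.71 at 18.8 kb, each over an annotated internal start. At Ppard the 3 strongest reached 21.3 at 47.5 kb in intron 2, 17.4 at 57.8 kb and 9.49 at 55.2 kb, the last 2 in intron 3. None of these 3 held an annotated start, in contrast to those of Ppara.

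At Pparg no interval outside the promoter exceeded 8.25, which was reached over exon 6, 100842 bp downstream. The next were 7.59 in intron 6 at 107781 bp and 7.33 in intron 2 at 72.7 kb. All 3 lay below the third strongest such interval of each of the other genes, which was 8.71 or more.

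At Ppargc1a the 3 strongest reached 22.7 at 16.4 kb and 21.5 at 25.9 kb, both in intron 2, and 17.1 at 74.3 kb in intron 7. Intervals of 13.8 and 10.7 also lay in intron 2, at 8.37 kb and 14.2 kb, so that the first part of this intron held 4 intervals at 10 or more. At Ppargc1b the 3 strongest lay in intron 1 and reached 32.6 at 32.3 kb, 19.1 at 68.7 kb and 18.3 at 5.70 kb. A further 6 intervals of intron 1 reached between 12.2 and 17.3, and the interval at 86.5 kb in intron 3 reached 9.82. The value of 32.6 was the highest outside a promoter at any of the 5 genes, and 8161 intervals of the whole list were stronger.

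Copies of the PPAR response element near the summits of these genes were then counted, since PPARs can act on their own genes and on that of PGC-1alpha. In the 200 bp around the highest summit, AGGTCANAGGTCA with up to 2 of its 12 fixed bases changed was found in 10 of the 163 intervals, or 6.13% (Wilson 95% interval 3.37% to 10.9%). Over all intervals the share was 4.78%. The Wilson interval takes the 163 windows as independent, though they share 5 genes, so it is no test against that share. Of the intervals at a fold enrichment of 5 or more, 2 of 36 held a match, against 5.13% of all such intervals. Ppargc1a had 4 of the 10, Ppara 3, Ppard 2, Ppargc1b 1 and Pparg 0 of its 11. The best match in the strongest interval that held one is printed for each receptor or coactivator gene shown, with the 13 letters in capitals on the strand of the match.
Ppara intron 2, chr15:85638659-85638687, plus strand: tcttaggtAGGTCATCAGTCAggacctaa
Ppard intron 2, chr17:28460023-28460075, minus strand: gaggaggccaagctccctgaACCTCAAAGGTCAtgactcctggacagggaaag
Ppargc1a intron 7, chr5:51636894-51636946, minus strand: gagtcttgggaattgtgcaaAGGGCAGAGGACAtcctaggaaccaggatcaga

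Positions count from 1 at the 5′ end of the 13 letters, and each change gives the consensus base first. The Ppara match carried A8C and G9A and lay 19 bp from the summit of 8.71. The Ppard match carried G2C and G3C, leaving 1 intact half-site, 11 bp from a weak summit of 2.95. The Ppargc1a match carried T4G and T11A, 1 in each half-site, and lay 35 bp from the summit of 17.1.

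The HNF4 motif was found in some of the strongest intervals. CAAAGTCCA, read by the tubule and liver receptor HNF4alpha and by its paralogue, occurred exactly in 5 of the 163 windows, or 3.07% (Wilson 95% interval 1.32% to 6.98%), against 0.884% of all intervals. Of the intervals at 5 or more, 4 of 36 held it, against 1.51% of all such intervals. No test was made, 8 motifs were searched, and the 5 windows come from 4 genes. It stood in the strongest interval outside the promoter at both Ppara (29.5) and Ppargc1b (32.6), 65 bp and 41 bp from the summits. At Ppara it also stood beside the DR1 match above. The sequences at Ppara and Ppard were chosen for printing after these counts were seen, and have the 9 letters in capitals on the strand of the match.
Ppara intron 2, 41.3 kb, chr15:85661239-85661263, minus strand: gacaagagCAAAGTCCAcgttccct
Ppara intron 2, 18.8 kb, chr15:85638610-85638634, plus strand: gagcagtaCAAAGTCCAcctagtga
Ppard intron 3, 57.8 kb, chr17:28509476-28509524, plus strand: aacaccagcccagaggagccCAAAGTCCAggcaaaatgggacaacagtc

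The other motifs were sparse in these windows. HNF1, a tubule factor of a different family, matched in 5 intervals, or 3.07% against 2.70% of all, with 3 at Ppara and 2 at Ppargc1a. Of the intervals at 5 or more, 3 of 36 held a match, against 5.82% of all such intervals. These 3 included the 19.4 interval of Ppara, with 1 mismatch, and the 21.5 interval of Ppargc1a, 5 bp from its summit. GGGCGG was found in 16, or 9.82% against 8.15%, of which 7 were at Ppard. CRE was found in 1 interval, the promoter interval of Ppargc1a, or 0.613% against 0.405% of all. ETS was found in 1 interval of Pparg, or 0.613% against 0.591%. No window held ERR or NRF1, which 0.680% and 0.101% of all intervals did.

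The wider pathway was followed through the promoters of genes that work with the 5. Of 69 such genes in 6 lists, 68 had an accessible promoter, beside 75.8% of protein-coding genes. A further list of 38 other nuclear receptors was set beside them as a comparison family. The median promoter fold enrichment, with 0 for a gene without an interval, was 37.6 for the 5 genes and 19.4 for all protein-coding genes.

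All 3 retinoid X receptors, the obligate partners of PPARs on DNA, had one, with Rxrb at 47.1, Rxra at 24.7 and Rxrg at 10.3. All 8 coactivators did, with a median of 32.2. Ncoa2, a steroid receptor coactivator (84.0), and Lpin1, a phosphatidate phosphatase that also works with PGC-1alpha (44.6), were highest, and Ncoa3 (22.7) and Prdm16, a brown fat regulator (14.2), lowest. All 6 corepressor genes did, with a median of 37.3. They were led by Nrip1 (70.9), which opposes oxidative metabolism, and Tbl1xr1 (56.4), while Ncor1 stood at 33.5.

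Of the 20 regulators and partners of PGC-1, all had an accessible promoter and the median was 38.4. Gabpa, a subunit of the mitochondrial regulator NRF-2 (92.3), and Crtc2, a coactivator of CREB (83.5), were highest. Mef2c, a MADS-box transcription factor (7.01), and Perm1, a muscle partner of PGC-1 (5.70), were lowest.

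All 22 PPARalpha targets in fatty acid oxidation had one, with a median of 32.4. Pdk4, the kinase that turns off pyruvate oxidation (107), and Acadm, the medium-chain acyl-CoA dehydrogenase (91.3), stood highest. Cyp4a14, a fatty acid hydroxylase (4.39), and Fabp1, the liver fatty acid binding protein (2.55), stood lowest. Of the 10 PPARgamma targets in adipocytes, 9 had one, and the median of 12.8 lay below that of all protein-coding genes. Plin1 (36.1) and Pck1, a gluconeogenic enzyme that the proximal tubule also uses (29.8), were highest, and the hormone genes Lep (2.03) and Adipoq (no interval) lowest. Pparg itself, at 15.7, was the PPAR with the lowest promoter value. Its target list had the lowest median of the 7, and a link to the Pparg value was not tested.

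Among 38 other nuclear receptors, 35 had an accessible promoter and the median was 25.0. The circadian repressor Nr1d2 (101) and the mineralocorticoid receptor Nr3c2 (89.7) were highest, and Nr2e3, Nr5a1 and Thrb had no interval at the canonical start. When any annotated start was allowed, 106 of the 107 genes of all 7 lists had an accessible promoter, against 103 at the canonical start. The share of all protein-coding genes with any annotated start allowed is not given. Ppara and Ppard lay above the median of 25.0 and Pparg below it. With 1 pooled value per gene, none of these differences could be tested.

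**Figure D5:**
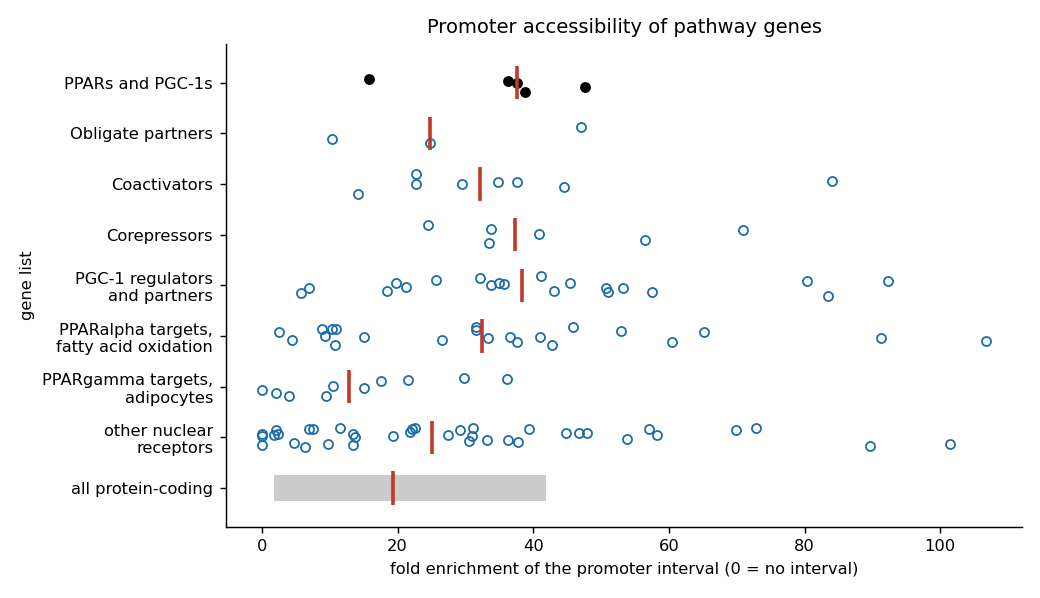
Fold enrichment of the promoter interval (x axis, 0 where there is none) for each gene of the 7 lists and for the PPAR and PGC-1 genes (y axis), with list medians in red, and for all protein-coding genes the middle 50% of values as a grey bar. The medians run from 12.8 for the PPARgamma targets to 38.4 for the PGC-1 regulators, beside 19.4 for all protein-coding genes.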

How the data were processed

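ATAC-seq was measured in 3 WT and 3 Acly cKO kidneys, grouped by the library names in their labels. By their methods, the authors used fastp for trimming and Bowtie2 for alignment to mm39 (version 2.3.4.3 in the submitters' processing notes), kept unique reads without duplicates, called peaks with MACS3 (3.0.0 in those notes) and removed blacklisted regions. Reads were shifted and extended by fixed lengths, with the shift given without a minus sign, and a shift that did not centre reads on the Tn5 cut would displace summits and hence their distances to starts. The deposited list gives each summit's fold enrichment, a linear ratio over background computed by the authors, and its -log10 q as the authors' caller wrote it. Its score column, which the authors' caller derived from that q, was not used, and the deposited list of unfiltered summits served only as a check: all 590 filtered summits at the 5 genes were in it. Depth per library is unknown beyond a stated minimum, and Wilson intervals at 95% cover counting error only.

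The 749750 summits were joined into 279569 distinct intervals, placed on GENCODE M39 (GRCm39) and written from 1. A promoter interval overlapped 1 kb on either side of the canonical start. Lists were described by counts and medians, with no test, since the call is pooled. All 5 genes, their start groups and the 3 strongest intervals outside each promoter are named, with the 2 highest and 2 lowest genes of each list and genes whose start lies in the promoter intervals. A single gene that this rule would name is not reported here. The members and lists were chosen with earlier results of these data known. Printed sequences that touch an annotated exon were held to 30 bases, so the Ppargc1a stretch was centred on its CRE. Scripts (Python 3.11.15, pandas 2.3.3, numpy 2.4.6, scipy 1.17.1, pysam 0.24.0) were tested on simulated data, with 19 of 19 cases correct. The alternatives were other q and fold enrichment thresholds, flanks, promoter windows, start definitions, motif settings and composition windows.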

Additional observations from a re-analysis of the deposited data

How the results depend on the processing

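The number of intervals at the 5 genes, 163, fell to 89 at a q under 1e-05 and to 36 at a fold enrichment of at least 5, and became 590 when summits were counted instead. It stayed within 1.5 times of 163 with a q under 0.01, no upstream flank, flanks of 10 kb, or the highest summit required to lie in the region. The number with a PPAR response element match, 10, was 2 with up to 1 mismatch, or 1.23% against 0.756% of all intervals. It was 5 in 100 bp around the summit, or 3.07% against 2.73%. Over the whole interval it was 35. No share over all intervals is given for that setting, and the 163 intervals were wider, with a median of 619 bp against 434 bp. All 5 promoters were accessible under each of the 5 alternatives tried, and the covered start groups ranged from 20 of 24, with protein-coding transcripts only, to 28 of 33. Of the 107 genes of the 7 lists, 103 had an accessible promoter. This became 95 at a fold enrichment of at least 5, 99 at a q under 1e-05 and 106 with any annotated start. Per gene, Pparg had the fewest intervals at each q limit, but not at a fold enrichment of at least 5. The GC share fell at all 5 promoters in windows of 1 kb, to between 46.5% and 71.4%. Restricting the summit to 1 kb from the start lowered the promoter value of Pparg to 7.40 and of Ppargc1b to 31.7. No paired analysis was possible because the deposited call pools all libraries, and replicates could not be left out for the same reason. The depth and share of each library in the pool are unknown, the files do not show whether further WT libraries of the study entered it, and a wide interval has more chances of a high summit than a narrow one.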
